A study of Mus musculus with 18 samples.

Results

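The genes described here encode collagens, laminins and other matrix proteins, among them those of the meninges and of blood vessels, and some meningeal regulators. These genes were followed in the embryonic cerebral cortex of mice lacking *Fto* or *Mettl3*. They comprise all mouse genes whose symbol is that of a collagen chain (44 genes) or a laminin chain (11 genes), together with 11 named genes of meningeal matrix and its regulators, namely *Dcn*, *Lum*, *Ogn*, *Fn1*, *Fbln1*, *Nid1*, *Nid2*, *Sparc*, *Foxc1*, *Foxd1* and *Aldh1a2*. The rule uses symbols only and gave 66 of the 55153 genes in the RNA-seq table. All 66 were present in the RNA-seq tables, 48 had Ribo-seq counts in every library, and the other 18 had Ribo-seq RPKM values but blank counts in 8 of the 9 libraries.

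RNA-seq and Ribo-seq (sequencing of ribosome-protected fragments) were carried out on cerebral cortex at embryonic day 15.5, with 3 libraries in each of 3 groups and each assay, 18 libraries in all. Control mice (Ctrl) are labelled wild type and C57BL/6, *F*-cKO mice lacked *Fto*, which encodes an m6A demethylase, and *M*-cKO mice lacked *Mettl3*, which encodes the catalytic subunit of the m6A methyltransferase. Both knockouts were made with *Emx1-Cre*, which deleted exon 3 of *Fto* in *F*-cKO and exons 2 and 3 of *Mettl3* in *M*-cKO, and the floxed mice had a mixed C57/BL6 and 129 background. This Cre acts in dorsal cortical progenitors and their descendants, so meningeal fibroblasts, pericytes, endothelial cells and microglia are not its target. The labels call the 3 libraries of a group biological repeats and do not say how many embryos each holds. The study's methods describe the 3 cortical samples for Ribo-seq as coming from "1 L", a term left unexplained, so whether libraries share a litter is not known, and *P* values measure the spread between these libraries. Counted reads ranged from 18504094 to 22592406 per RNA-seq library, and counted fragments over the 14348 genes with Ribo-seq counts in every library from 10973699 to 35853227. *F*-cKO library 2 was the shallowest of the Ribo-seq libraries.

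The targeted genes were examined in every library. *Fto* RNA-seq FPKM was 10.8, 11.2 and 8.37 in Ctrl and 3.26, 7.56 and 2.43 in *F*-cKO, so *F*-cKO library 2 kept more *Fto* RNA than the other 2 libraries of its group. Its Ribo-seq RPKM was between 17.6 and 25.9 in Ctrl and between 2.11 and 4.04 in *F*-cKO. *Mettl3* RNA was not lower in *M*-cKO (FPKM between 7.82 and 8.61, compared with 5.07 to 6.43 in Ctrl). For both genes a value over the whole gene includes exons outside the deletion, so these levels check the labels only in part. *Mettl3* RPKM was lower in all 3 *M*-cKO libraries (between 6.02 and 6.78, compared with 9.16 to 9.93 in Ctrl). Dorsal cortex markers, led by *Neurod6*, summed to between 1038 and 1407 FPKM in the 9 RNA-seq libraries.

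Collagens are trimers whose chains are often made by separate genes. Fibrillar collagens I and III form the fibres of loose connective tissue and are produced by fibroblasts, while collagen IV, laminins and nidogens assemble into the sheets called basement membranes. In the developing brain, meningeal fibroblasts and radial glial endfeet share the pial basement membrane, and endothelial cells and pericytes share that of the vessels. *Foxc1*, *Foxd1* and *Aldh1a2*, the last of which encodes an enzyme of retinoic acid synthesis, are known from the embryonic meninges. Neurons and progenitors express some members of the collagen and laminin families themselves, among them *Col25a1*, a transmembrane collagen, and *Lama5*.

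Levels of the members spanned a wide range, given here as FPKM, which accounts for gene length. *Sparc*, a secreted collagen-binding glycoprotein, was the highest in the RNA-seq data, with a mean of 41.6 FPKM over the 9 libraries (range 29.3 to 54.4). The collagen IV chains *Col4a1* and *Col4a2* followed at means of 15.2 and 11.99, and then *Fbln1* (fibulin 1) at 11.6. *Fn1* (fibronectin), *Col9a3*, *Lamc1*, *Col2a1* and *Lamb1*, a laminin β chain, had means of 8.23, 8.005, 6.95, 5.56 and 5.499, and their ranges over libraries overlapped. Of the 66 members, 38 had a mean of at least 1 FPKM over the 9 libraries. In RNA-seq, 58 members passed the filter on low counts in all 3 comparisons, and 5 passed it in none (*Col10a1*, *Col17a1*, *Col24a1*, *Col4a6* and *Col6a6*, with between 0 and 14 reads per library).

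The collagen I and III chains *Col1a1*, *Col1a2* and *Col3a1* ranged more widely among the *M*-cKO libraries than between the group means. *Col1a1* FPKM was 2.86, 5.36 and 2.72 in Ctrl, 1.72, 0.656 and 2.07 in *F*-cKO and 1.403, 5.65 and 8.88 in *M*-cKO. *Col1a2* FPKM was 1.82, 4.28 and 2.35 in Ctrl, 1.35, 0.488 and 1.38 in *F*-cKO and 1.15, 4.12 and 6.34 in *M*-cKO. For *Col3a1* the values were 2.75, 5.61 and 2.99 in Ctrl, 1.75, 0.702 and 2.87 in *F*-cKO and 1.69, 6.14 and 7.85 in *M*-cKO. In all of these genes Ctrl library 2 was the highest Ctrl library, *F*-cKO library 2 the lowest *F*-cKO library and *M*-cKO library 1 the lowest *M*-cKO library, and *M*-cKO library 1 lay below all Ctrl libraries whereas *M*-cKO library 3 lay above them. The ratio of *Col1a1* to *Col1a2*, the chains that make up collagen I, stayed between 1.16 and 1.57 over the same 9 libraries, while *Col1a1* itself ranged from 0.656 to 8.88.

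Of this order, the part within groups was counted: Ctrl library 2 highest, *F*-cKO library 2 lowest and *M*-cKO library 1 lowest. It was found in 30 of the 58 members (51.7%) tested in every RNA-seq comparison, and in 706 of 16471 genes (4.29%). The position of *M*-cKO libraries relative to Ctrl was not part of this count. This order was described after the values were seen. It held for all tested genes of 4 small classes. These were the nidogens (2 genes), short-chain network collagens (2), small leucine-rich proteoglycans (3) and meningeal regulators (3). Of 9 fibril-associated collagens it held for 1. *M*-cKO library 1 was the lowest of its group in 51 of the 58 members and in 4282 of the 16471 genes. *F*-cKO library 2 was the lowest of its group in 33 members and 4324 genes. Ctrl library 2 was the highest of its group in 43 members and 5154 genes. Markers of meningeal fibroblasts that are not members (22 genes) summed to 149, 233 and 171 FPKM in Ctrl, 141, 127 and 137 in *F*-cKO and 142, 207 and 237 in *M*-cKO, in the same library order, and *Igfbp2* made up 65.3% of this sum. In such bulk samples, fewer cells of a type and less RNA per cell cannot be told apart.

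**Figure D1:**
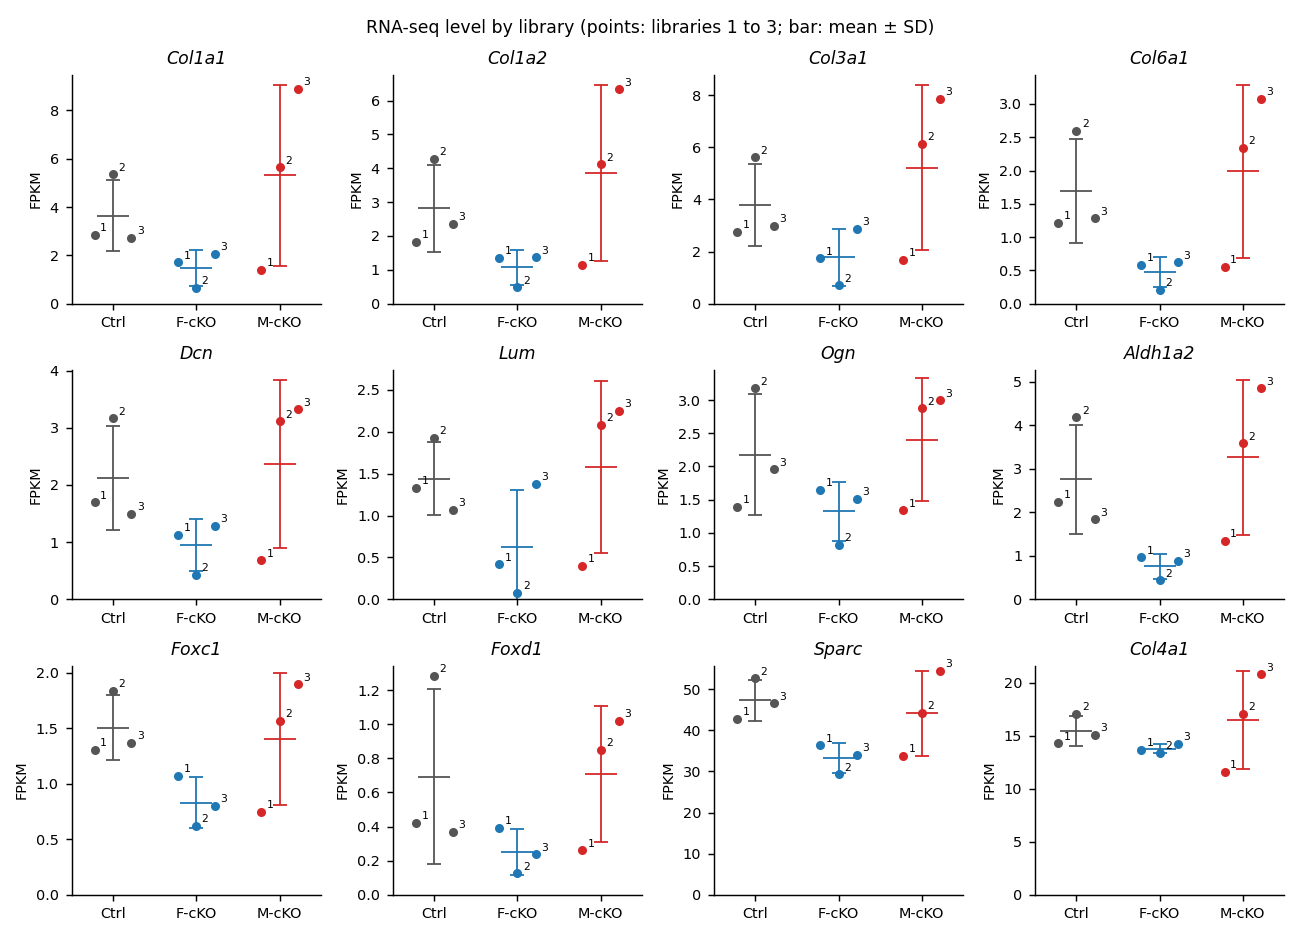
RNA-seq FPKM (vertical axis, linear from 0) of 12 members in Ctrl, *F*-cKO and *M*-cKO cortex. Numbered points are the 3 libraries of each group, and bars give the mean ± SD. *F*-cKO library 2 and *M*-cKO library 1 are the lowest of their groups in all 12 panels.

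In *F*-cKO, the RNA of collagen I and VI chains, *Aldh1a2*, *Foxc1* and *Sparc* fell, with the lowest log2 fold changes in *Aldh1a2* and *Col6a1*. Of 59 members tested, 13 fell and 1 rose, at a background of 9.57% of all genes called lower and 11.5% called higher. The median log2 fold change over the 59 members was -0.27, compared with -0.01 over all genes, and 44 members had a negative value. Without Ctrl library 2 this median was -0.12. On TMM-scaled CPM (counts relative to library size), used for all such counts of members, libraries of the 2 groups did not overlap for 20 members that were lower (20.6% of all genes) and 3 that were higher (21.1% of all genes). Without *F*-cKO library 2 or without Ctrl library 2, 7 members fell, and without Ctrl library 3, 8 fell.

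The meningeal regulators were represented by 3 genes, of which 2 fell. *Aldh1a2* FPKM was 2.25, 4.19 and 1.84 in Ctrl, 0.966, 0.432 and 0.8795 in *F*-cKO and 1.34, 3.59 and 4.85 in *M*-cKO. All 3 *F*-cKO libraries lay below all Ctrl libraries, and *Aldh1a2* fell to 0.274 times the Ctrl level (log2 fold change -1.87, standard error 0.37, adjusted *P* = 0.00907). *Foxc1*, a forkhead transcription factor needed for the meninges, had FPKM of 1.31, 1.84 and 1.37 in Ctrl, 1.07, 0.619 and 0.8003 in *F*-cKO and 0.746, 1.57 and 1.896 in *M*-cKO. Again the *F*-cKO libraries were all below Ctrl (log2 fold change -0.87, standard error 0.22, adjusted *P* = 0.0227), but the call was lost without *F*-cKO library 2, Ctrl library 2 or Ctrl library 3 (adjusted *P* between 0.0521 and 0.0775), and with all 3 groups in one fit (adjusted *P* = 0.0566). *Foxd1*, a related factor, had 0.423, 1.29 and 0.369 in Ctrl, 0.393, 0.126 and 0.238 in *F*-cKO and 0.261, 0.851 and 1.02 in *M*-cKO. Its groups overlapped, since *F*-cKO library 1 lay between Ctrl libraries 1 and 3, and the difference did not pass the test (log2 fold change -1.47, standard error 0.53, adjusted *P* = 0.0761), whereas DESeq2 called it lower (adjusted *P* = 0.0186).

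Collagen VI forms beaded filaments around cells, and its chains *Col6a1*, *Col6a2* and *Col6a3* all fell in *F*-cKO. *Col6a1* FPKM was 1.21, 2.59 and 1.28 in Ctrl, 0.588, 0.212 and 0.624 in *F*-cKO and 0.553, 2.34 and 3.08 in *M*-cKO. *Col6a2* gave 0.686, 1.39 and 0.943 in Ctrl, 0.379, 0.241 and 0.534 in *F*-cKO and 0.397, 1.33 and 1.62 in *M*-cKO. *Col6a3* gave 0.403, 0.725 and 0.478 in Ctrl, 0.232, 0.114 and 0.279 in *F*-cKO and 0.247, 0.737 and 1.09 in *M*-cKO. The *F*-cKO libraries were below every Ctrl library for each chain. *Col6a1* decreased most (log2 fold change -1.84, standard error 0.40, adjusted *P* = 0.0133), followed by *Col6a2* (log2 fold change -1.39, standard error 0.32, adjusted *P* = 0.0156) and *Col6a3* (log2 fold change -1.37, standard error 0.33, adjusted *P* = 0.0178). The call of *Col6a2* was lost without *F*-cKO library 2 (adjusted *P* = 0.0516) and that of *Col6a3* without Ctrl library 2 (adjusted *P* = 0.0570) and with all 3 groups in one fit (adjusted *P* = 0.0514). With replicate number as a block in the fit, *Col6a1* (adjusted *P* = 0.0519) and *Col6a3* were not called. Of the 6 tested genes of the beaded filament and anchoring class, 5 fell, the others being *Col26a1* (-0.75) and *Col7a1*, the anchoring fibril collagen (-0.74). The *Col7a1* call was lost without *F*-cKO library 1 or 2 or any Ctrl library (adjusted *P* between 0.0515 and 0.139) and with DESeq2 (adjusted *P* = 0.0597).

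Fibrillar collagens divided by chain. *Col1a2* (log2 fold change -1.40, standard error 0.38, adjusted *P* = 0.0289) and *Col1a1* (log2 fold change -1.31, standard error 0.37, adjusted *P* = 0.03402) fell, and the call of each was lost without *F*-cKO library 2, without Ctrl library 2 and without Ctrl library 3, that of *Col1a1* also without Ctrl library 1 (adjusted *P* between 0.0516 and 0.114). With DESeq2 the adjusted *P* was 0.0746 for *Col1a1* and 0.0580 for *Col1a2*, and with edgeR on all 3 groups in one fit it was 0.106 and 0.0746, so neither gene was called in these alternatives. *Col3a1* had a similar value but did not pass the test (log2 fold change -1.10, standard error 0.42, adjusted *P* = 0.0883). *Col5a1* and *Col5a2*, minor chains of the same fibres, had log2 fold changes of -0.14 and 0.12 and were not called. *Col2a1*, the cartilage collagen that neuroepithelium also makes, lay above Ctrl in every *F*-cKO library (0.72) and did not pass the test (adjusted *P* = 0.0526).

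Small leucine-rich proteoglycans bind collagen fibrils and mark fibroblasts. *Dcn* (decorin) FPKM was 1.697, 3.17 and 1.49 in Ctrl, 1.12, 0.427 and 1.29 in *F*-cKO and 0.679, 3.11 and 3.32 in *M*-cKO. *Lum* (lumican) FPKM was 1.33, 1.93 and 1.07 in Ctrl, 0.417, 0.0799 and 1.38 in *F*-cKO and 0.396, 2.08 and 2.25 in *M*-cKO. *Ogn* (osteoglycin) FPKM was 1.39, 3.18 and 1.96 in Ctrl, 1.65, 0.819 and 1.52 in *F*-cKO and 1.34, 2.88 and 2.996 in *M*-cKO. None of the 3 passed the test in *F*-cKO: the *Dcn* libraries did not overlap (log2 fold change -1.17, standard error 0.38, adjusted *P* = 0.0549), whereas those of *Lum* did (log2 fold change -1.20, standard error 0.63, adjusted *P* = 0.202) and those of *Ogn* did (log2 fold change -0.72, standard error 0.34, adjusted *P* = 0.155).

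Collagen IV is the collagen of basement membranes. *Col4a1* FPKM was 14.3, 17.1 and 15.1 in Ctrl, 13.7, 13.4 and 14.3 in *F*-cKO and 11.6, 17.1 and 20.8 in *M*-cKO, and *Col4a2* FPKM was 11.02, 12.6 and 12.3 in Ctrl, 10.6, 10.7 and 11.3 in *F*-cKO and 9.84, 13.2 and 16.4 in *M*-cKO. These chains are encoded head to head on chromosome 8, with RefSeq starts 21 bases apart (GRCm38.p6, *Col4a1* at chr8:11312826 on the minus strand and *Col4a2* at chr8:11312805 on the plus strand). Their ratio stayed between 1.18 and 1.36 in all 9 libraries, and neither was called in *F*-cKO (log2 fold changes -0.18 and -0.15). None of the 5 tested collagen IV chains was called, *Col4a5* included (0.17).

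Among the 11 laminin chains, *Lamc1*, the γ chain of most laminins, rose and *Lama2*, the α chain of muscle, nerve and pial basement membranes, fell in *F*-cKO. *Lamc1* FPKM was 6.23, 7.02 and 6.06 in Ctrl, 7.94, 7.22 and 7.99 in *F*-cKO and 6.17, 6.73 and 7.201 in *M*-cKO. Each *F*-cKO library exceeded each Ctrl library by a small margin (log2 fold change 0.25, standard error 0.08, adjusted *P* = 0.0460), and the call was lost when any 1 of 5 libraries was left out (each *F*-cKO library, Ctrl library 1 or Ctrl library 3, adjusted *P* between 0.0616 and 0.153). *Lama2* FPKM was 0.620, 0.534 and 0.5101 in Ctrl, 0.324, 0.377 and 0.281 in *F*-cKO and 0.202, 0.309 and 0.338 in *M*-cKO. Both knockouts lay below Ctrl, and *Lama2* fell in *F*-cKO (log2 fold change -0.77, standard error 0.16, adjusted *P* = 0.0108) under all 11 alternatives run. *Lamb1*, the partner of *Lamc1*, did not follow it (log2 fold change -0.07, standard error 0.07, adjusted *P* = 0.477), so that the ratio of *Lamb1* to *Lamc1* was between 0.669 and 0.720 in *F*-cKO and between 0.840 and 0.875 in Ctrl. *Lamb2*, another abundant laminin chain, was not called (0.31).

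*Nid1* and *Nid2* encode nidogens, which link laminin to collagen IV. *Nid1* FPKM was 5.01, 5.49 and 4.26 in Ctrl, 4.68, 3.94 and 4.596 in *F*-cKO and 3.52, 5.47 and 6.45 in *M*-cKO. *Nid2* FPKM was 3.67, 5.17 and 3.42 in Ctrl, 3.503, 2.76 and 3.96 in *F*-cKO and 3.13, 5.58 and 6.55 in *M*-cKO. The network collagens *Col8a1* and *Col8a2* (-0.53 and -0.06) and the fibril-associated *Col9a2* (-0.22) were not called. Both nidogens overlapped between *F*-cKO and Ctrl and neither was called (log2 fold changes -0.17 and -0.27). *Col15a1*, a vessel-associated multiplexin, fell (log2 fold change -1.05, standard error 0.23, adjusted *P* = 0.0126), as did *Col23a1*, a transmembrane collagen (log2 fold change -0.60, standard error 0.16, adjusted *P* = 0.0265), the latter only while *F*-cKO libraries 2 and 3 and Ctrl libraries 2 and 3 were all kept (adjusted *P* between 0.0587 and 0.0923 without any of these).

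*Sparc* FPKM was 42.8, 52.7 and 46.6 in Ctrl, 36.4, 29.3 and 34.1 in *F*-cKO and 33.8, 44.3 and 54.4 in *M*-cKO. The 3 *F*-cKO libraries lay below all Ctrl libraries and *Sparc* fell under all 11 alternatives (log2 fold change -0.52, standard error 0.10, adjusted *P* = 0.00742). *Fn1* FPKM was 8.64, 8.98 and 7.42 in Ctrl, 9.39, 7.77 and 9.54 in *F*-cKO and 4.95, 7.97 and 9.39 in *M*-cKO, with overlapping groups (log2 fold change 0.08, standard error 0.10, adjusted *P* = 0.579). *Fbln1* was not called in *F*-cKO (log2 fold change -0.14, standard error 0.08, adjusted *P* = 0.257).

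Markers of other cell types moved with these members in *F*-cKO. Over all genes, 9.57% were called lower and 11.5% higher. Of 21 tested markers of meningeal fibroblasts outside the member list, 9 fell and 2 rose (median log2 fold change -1.27). Those that fell included *Ptgds* (-3.22), *Slc22a6* (-2.49) and *Slc6a13* (-2.33). In the other direction, *Asb4* FPKM was between 0.828 and 1.14 in *F*-cKO and between 0.492 and 0.715 in Ctrl. The summed level of the list was 135 ± 7.12 FPKM in *F*-cKO and 184 ± 43.6 in Ctrl (SD, n = 3; two-sided exact permutation test, *P* = 0.1, the smallest that 3 against 3 libraries allow). *Slc47a1* had a mean under 0.1 FPKM. Of 10 pericyte markers 6 fell and 1 rose, their sums ranging from 37.0 to 40.4 FPKM in *F*-cKO and from 47.4 to 52.4 in Ctrl. Of 14 endothelial markers 4 fell and none rose, with sums from 66.5 to 73.6 and from 80.3 to 87.5 FPKM. Dorsal cortex markers went the other way, with 8 of 13 higher and none lower (sums from 1267 to 1330 FPKM in *F*-cKO and from 1038 to 1156 in Ctrl). Microglial markers overlapped (25.3 to 32.7 and 31.6 to 38.2 FPKM, none of 8 called), and the part of any of these in the members' values was not tested.

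Of the lists for tissues outside the brain, cartilage and bone markers gave 2 lower of 5 tested in *F*-cKO (*Matn4* and *Runx2*), and 8 of the 12 genes had a mean under 0.1 FPKM, among them *Acan*, *Comp* and *Sp7*. Skin markers gave 1 lower of 4 tested, with *Krt5*, *Krt14*, *Krt15* and *Trp63* at a mean under 0.1 FPKM. Skeletal muscle markers gave none called of 2 tested, with *Myh3*, *Myh8*, *Myod1*, *Myog* and *Ckm* at a mean under 0.1 FPKM. Choroid plexus markers, of which *Ttr* made up 97.2%, ranged from 70.8 to 808 FPKM within Ctrl alone and gave none called of 5.

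The 250 bases upstream of the RefSeq start were examined for motifs. A window was given for 47 members (52 windows), and *Col1a1*, *Fn1* and *Col12a1* had none. A CCAAT box (CCAAT, or ATTGG on the other strand) was present in 34.6% of the member windows and in 33.8% of all 32851 windows, and a TATA box (TATAAA, or TTTATA) in 11.5% and 12.4%. A GC box (GGGCGG, or CCGCCC) was present in 53.8% and 32.7%. Matches were counted on both strands, also where those of different motifs shared bases. The last 150 bases before the start are shown for *Col1a2*, *Col3a1*, *Col6a1* and *Aldh1a2*, which stand for the genes that varied together across libraries, from GRCm38.p6 and 5′ to 3′ on the strand of the gene, with CCAAT and TATA boxes in capitals.
*Col1a2* (chr6:4505468-4505617, plus strand): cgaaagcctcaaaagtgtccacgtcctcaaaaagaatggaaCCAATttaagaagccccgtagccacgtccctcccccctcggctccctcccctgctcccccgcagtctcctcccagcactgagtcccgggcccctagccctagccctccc
*Col3a1* (chr1:45311388-45311537, plus strand): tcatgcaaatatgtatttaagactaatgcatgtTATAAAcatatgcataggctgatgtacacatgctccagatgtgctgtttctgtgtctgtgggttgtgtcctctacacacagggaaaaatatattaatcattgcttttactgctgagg
*Col6a1* (chr10:76726045-76726194, minus strand): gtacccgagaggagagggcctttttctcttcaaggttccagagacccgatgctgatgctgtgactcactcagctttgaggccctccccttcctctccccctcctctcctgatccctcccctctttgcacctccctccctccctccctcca
*Aldh1a2* (chr9:71215639-71215788, plus strand): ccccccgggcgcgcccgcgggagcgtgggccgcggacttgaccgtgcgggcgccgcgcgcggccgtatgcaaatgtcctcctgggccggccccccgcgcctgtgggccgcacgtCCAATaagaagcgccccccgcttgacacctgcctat
*Col1a2* and *Aldh1a2* each held 1 CCAAT box, *Col3a1* held 1 TATA box, and *Col6a1* held neither in these 150 bases.

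**Figure D2:**
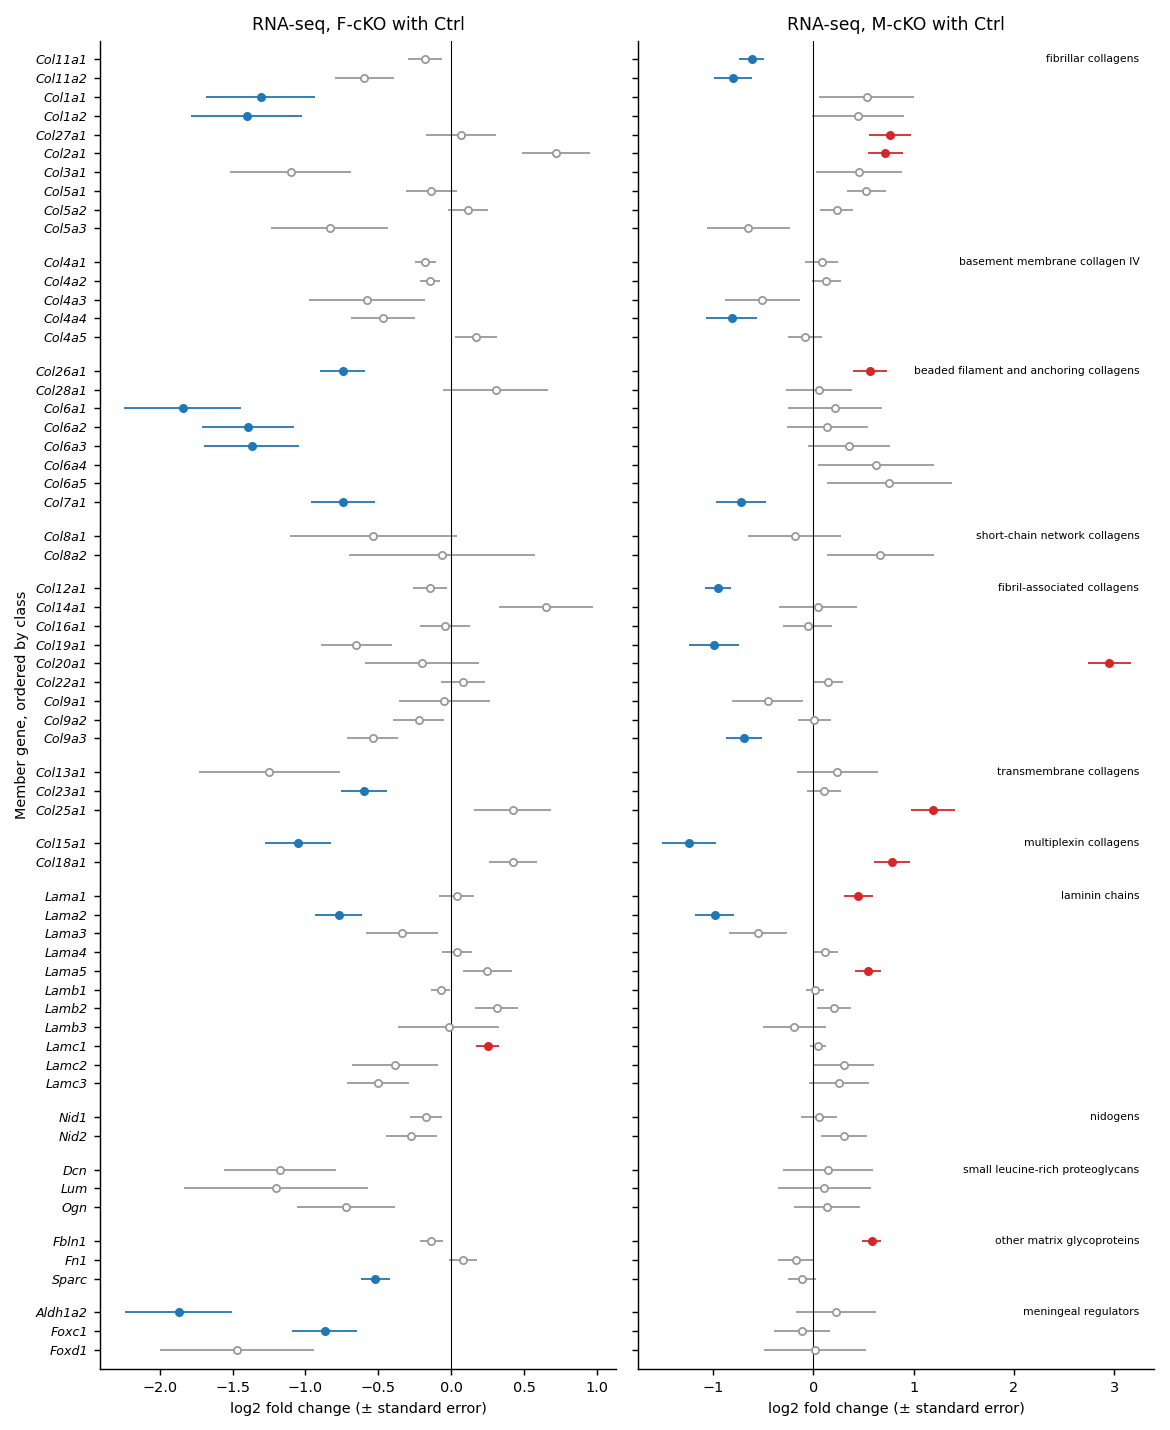
RNA-seq log2 fold change (horizontal axis, with its standard error) of each member tested against Ctrl, in *F*-cKO (left) and *M*-cKO (right), ordered by class. Filled blue points are members called lower and filled red points members called higher at an adjusted *P* below 0.05, and open grey points were not called. In *F*-cKO 13 points are blue and 1 is red, in *M*-cKO 9 are blue and 9 are red.

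In *M*-cKO, *Col20a1*, *Col25a1*, *Col18a1* and *Fbln1* were among the members whose RNA rose, and *Col15a1*, *Col12a1* and *Lama2* among those whose RNA fell. The collagen I, III and VI chains were not called. Of 61 members tested, 9 rose and 9 fell, at a background of 15.5% of all genes called higher and 14.1% called lower. Each share (14.8%) was near its background. The median log2 fold change of the members was 0.12, compared with -0.01 over all genes, and without *M*-cKO library 3 it was -0.10. Libraries did not overlap for 8 members that were higher (23.3% of all genes) and 9 that were lower (21.4%). Without *M*-cKO library 1, which was the lowest of its group for most members, 17 members rose, and without Ctrl library 3, 5 fell. Both comparisons share the Ctrl libraries.

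*Col20a1*, a fibril-associated collagen, had the largest rise among the members. Its FPKM was 0.165, 0.147 and 0.156 in Ctrl, 0.0662, 0.181 and 0.162 in *F*-cKO and 1.03, 1.39 and 1.25 in *M*-cKO. The 3 *M*-cKO libraries were all above 1 FPKM while the 6 others were below 0.2. The fold was 7.73 (log2 fold change 2.95, standard error 0.22, adjusted *P* = 1.67e-05), and *Col20a1* was not called in *F*-cKO (-0.20). *Col25a1* FPKM was 0.1896, 0.146 and 0.157 in Ctrl, 0.2703, 0.249 and 0.147 in *F*-cKO and 0.402, 0.447 and 0.286 in *M*-cKO. Here too *M*-cKO was above all Ctrl libraries (log2 fold change 1.19, standard error 0.22, adjusted *P* = 0.00219), with *F*-cKO at a log2 fold change of 0.42 and not called.

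*Col18a1*, the multiplexin of basement membranes that carries endostatin, had FPKM of 2.81, 3.65 and 2.65 in Ctrl, 3.65, 3.54 and 5.11 in *F*-cKO and 3.83, 5.47 and 6.56 in *M*-cKO. It rose in *M*-cKO (log2 fold change 0.79, standard error 0.18, adjusted *P* = 0.00712). *Col27a1*, a fibrillar collagen of cartilage, had 0.322, 0.529 and 0.345 in Ctrl, 0.351, 0.375 and 0.533 in *F*-cKO and 0.579, 0.821 and 0.649 in *M*-cKO. Its *M*-cKO libraries were all above Ctrl (log2 fold change 0.77, standard error 0.21, adjusted *P* = 0.0179), and the call was lost without *M*-cKO library 2, Ctrl library 1 or Ctrl library 3 (adjusted *P* between 0.0633 and 0.0809). *Col2a1* FPKM was 4.44, 4.65 and 2.48 in Ctrl, 4.91, 6.16 and 8.18 in *F*-cKO and 5.81, 6.47 and 6.96 in *M*-cKO. Ctrl library 3 was the lowest of the 9 for *Col2a1*, and the rise in *M*-cKO (log2 fold change 0.72, standard error 0.18, adjusted *P* = 0.0112) kept its call under all 11 alternatives.

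*Fbln1* FPKM was 9.54, 11.1 and 9.75 in Ctrl, 9.71, 9.18 and 8.98 in *F*-cKO and 13.8, 14.9 and 17.03 in *M*-cKO. Fibulin 1 binds laminin and fibronectin, and in *M*-cKO its libraries were all above those of the other groups (log2 fold change 0.58, standard error 0.09, adjusted *P* = 0.000898). *Lama5*, the laminin α chain of many epithelia and vessels, had FPKM of 1.48, 1.85 and 1.21 in Ctrl, 1.64, 1.62 and 2.18 in *F*-cKO and 2.19, 2.23 and 2.25 in *M*-cKO. It rose in *M*-cKO (log2 fold change 0.54, standard error 0.13, adjusted *P* = 0.00974), as did *Lama1*, the α chain of the early pial membrane (log2 fold change 0.45, standard error 0.14, adjusted *P* = 0.0365). The *Lama1* call was lost without *M*-cKO library 2 or 3 or Ctrl library 1 or 3 (adjusted *P* between 0.0839 and 0.121). *Col26a1* rose as well (0.57), on the same 4 libraries (adjusted *P* between 0.0766 and 0.108 without any of these).

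The members that fell in *M*-cKO included 3 of the 9 fibril-associated collagens (*Col12a1*, *Col19a1* and *Col9a3*), beside 14.1% of all genes called lower. *Col15a1*, a multiplexin, and *Lama2*, a laminin chain, are of other classes. *Col15a1* FPKM was 1.53, 2.43 and 3.12 in Ctrl, 1.21, 1.12 and 1.09 in *F*-cKO and 0.729, 0.889 and 1.39 in *M*-cKO. Its level fell in *M*-cKO (log2 fold change -1.24, standard error 0.27, adjusted *P* = 0.00592). *Col12a1*, which lies on the surface of collagen I fibres, had FPKM of 1.79, 2.32 and 1.88 in Ctrl, 1.67, 1.77 and 2.02 in *F*-cKO and 1.05, 0.884 and 1.19 in *M*-cKO. The *M*-cKO libraries lay below all 6 others (log2 fold change -0.95, standard error 0.13, adjusted *P* = 0.000394), while *F*-cKO overlapped Ctrl and was not called (-0.14). *Lama2* fell (log2 fold change -0.98, standard error 0.19, adjusted *P* = 0.00321), as it did in *F*-cKO.

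*Col19a1*, a fibril-associated collagen that neurons express, had FPKM of 0.324, 0.363 and 0.512 in Ctrl, 0.254, 0.256 and 0.256 in *F*-cKO and 0.179, 0.2301 and 0.197 in *M*-cKO. It fell (log2 fold change -0.99, standard error 0.25, adjusted *P* = 0.0123), though not without Ctrl library 3 (adjusted *P* = 0.0580). *Col4a4*, a collagen IV chain of specialised basement membranes, had 0.2397, 0.276 and 0.342 in Ctrl, 0.215, 0.189 and 0.218 in *F*-cKO and 0.220, 0.126 and 0.141 in *M*-cKO. Its call (log2 fold change -0.81, standard error 0.26, adjusted *P* = 0.03399) was lost without *M*-cKO library 2 or 3 or Ctrl library 2 or 3 (adjusted *P* between 0.0567 and 0.131). *Col11a1*, *Col11a2* and *Col9a3*, chains of the cartilage type, also fell (log2 fold changes -0.61, -0.80 and -0.69), *Col9a3* not without Ctrl library 3 (adjusted *P* = 0.0575). *Col7a1* fell (-0.72) but lost its call when any 1 of 5 libraries was left out (*M*-cKO library 1 or 2 or any Ctrl library, adjusted *P* between 0.0512 and 0.153) and with DESeq2 (adjusted *P* = 0.0679).

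*Col1a1* was not called in *M*-cKO (log2 fold change 0.53, standard error 0.47, adjusted *P* = 0.441), with 1 *M*-cKO library below and 2 above all Ctrl libraries. Its level was 5.31 ± 3.75 FPKM in *M*-cKO and 3.65 ± 1.49 in Ctrl (SD, n = 3). *Col6a1*, *Dcn*, *Aldh1a2*, *Foxc1*, *Foxd1* and *Sparc* had log2 fold changes of 0.22, 0.15, 0.23, -0.11, 0.02 and -0.11, and none was called. Of 21 meningeal fibroblast markers 3 rose and none fell, namely *Zic1*, *Asb4* and *Zic4*, of which *Zic1* and *Zic4* are also known from other brain cells, and the sums of the list overlapped (142 to 237 FPKM in *M*-cKO, 149 to 233 in Ctrl). Pericyte markers gave 1 higher and 1 lower of 10, and endothelial markers 1 lower of 14 (*Ly6c1*). Dorsal cortex markers summed to between 1387 and 1407 FPKM, above all Ctrl libraries, with 6 higher and 1 lower of 13, and their part in the members' values was not tested.

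When *M*-cKO was compared directly with *F*-cKO, 16 of 59 members were higher in *M*-cKO and 2 lower, at a background of 13.1% and 14.3% of all genes. Libraries did not overlap for 10 higher members (22.8% of all genes) and 5 lower ones (20.9%). The higher genes included *Col20a1* (3.14), *Aldh1a2* (2.09), *Col6a1* (2.05), *Col1a2* (1.84) and *Col1a1* (1.83), and the lower genes were *Col12a1* (-0.82) and *Col11a1* (-0.45). *Col11a1* FPKM was 2.097, 2.56 and 2.68 in Ctrl, 1.899, 2.26 and 2.36 in *F*-cKO and 1.38, 1.76 and 1.69 in *M*-cKO. Its call was lost without *M*-cKO library 1, *F*-cKO library 2 or *F*-cKO library 3 (adjusted *P* between 0.0598 and 0.0862), so that 1 member remained lower in each case. The other higher members were *Col6a3* (1.71), *Col6a2* (1.52), *Foxd1* (1.48), *Col3a1* (1.54), *Col13a1* (1.47), *Col26a1* (1.30), *Col25a1* (0.76), *Col23a1* (0.69), *Col27a1* (0.69), *Fbln1* (0.71) and *Col5a1* (0.65). The count of higher members moved from 16 to 26 without *M*-cKO library 1, to 4 without *M*-cKO library 2, to 7 without *M*-cKO library 3 and to 5 without *F*-cKO library 2. *Col20a1*, *Aldh1a2*, *Col26a1* and *Fbln1* kept their calls under all 11 alternatives. DESeq2 did not call *Col1a1*, *Col1a2*, *Col3a1* and *Col6a2* (adjusted *P* = 0.0792, 0.0587, 0.135 and 0.0610), and *Foxd1* was not called with all 3 groups in one fit (adjusted *P* = 0.0725). In this comparison 13 of 20 tested meningeal fibroblast markers were higher in *M*-cKO with none lower.

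Genes that act on these matrix proteins were examined as 4 lists. Over all genes, 11.5% were called higher and 9.57% lower in *F*-cKO, and 15.5% and 14.1% in *M*-cKO, and the counts below are small and stand beside these shares without a test of the lists. Of 28 tested genes for collagen folding and processing, 1 rose and 5 fell in *F*-cKO, the clearest being *Adamts3* (0.54) and *Adamts2* (-0.76), both procollagen proteases. In *M*-cKO 5 of 29 rose and 5 fell, close to the shares over all genes, with *P3h4*, a partner of collagen prolyl and lysyl hydroxylases, at 0.74, *Serpinh1*, the collagen chaperone of the endoplasmic reticulum, at 0.51, and *Adamts2* at -1.19. Of 23 matrix receptors, 3 rose and 1 fell in *F*-cKO, among them *Itga6*, a laminin-binding integrin (0.42), and *Adgrg1*, a receptor for collagen III (0.50). In *M*-cKO 7 rose and 1 fell, led by *Dag1* (dystroglycan, 0.57). Other basement membrane genes gave 3 higher and 2 lower of 15 in each knockout, with *Ntn1* at 0.73 in *F*-cKO and 1.66 in *M*-cKO. Matrix proteases and their inhibitors gave 2 higher and 3 lower of 17 in *F*-cKO, and 3 higher and 2 lower in *M*-cKO, where *Adamts20* fell most clearly (-1.32). All these values are log2 fold changes in RNA-seq.

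**Figure D3:**
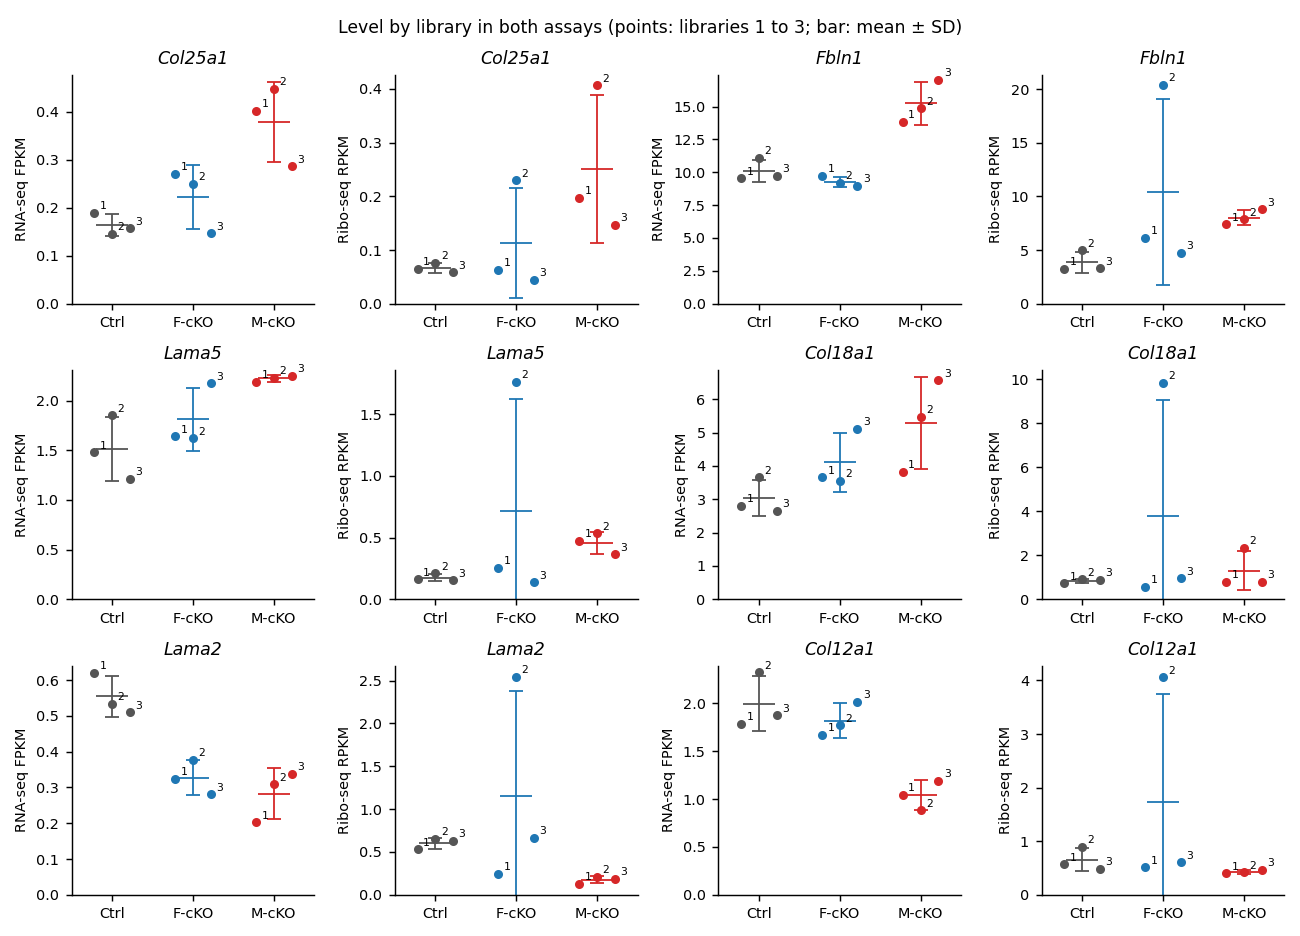
Levels of 6 members by library, as RNA-seq FPKM and Ribo-seq RPKM (vertical axes, linear from 0), in Ctrl, *F*-cKO and *M*-cKO. Numbered points are libraries, and bars give the mean ± SD. *Col25a1*, *Fbln1* and *Lama5* lie above and *Lama2* below all Ctrl libraries in *M*-cKO in both assays, and *F*-cKO library 2 is the highest *F*-cKO library in all 6 Ribo-seq panels.

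In Ribo-seq, 1 library dominated the *F*-cKO values of the members. *F*-cKO library 2 held the highest level of the 9 libraries for 39 of 48 members (81.3%), and for 30.2% of all genes with counts. Its RPKM was a median of 5.403 times the mean of *F*-cKO libraries 1 and 3 over the members, compared with 0.823 times over all 14348 genes, and it exceeded 3 times that mean for 36 of 48 members (75.0%) and 13.2% of all genes. By class, the median of this ratio was 12.8 in nidogens, 10.9 in multiplexins, 10.6 in laminin chains and 5.503 in collagen IV. *Nid1* RPKM was 0.906, 1.53 and 1.24 in Ctrl, 0.935, 17.7 and 1.34 in *F*-cKO and 0.638, 1.23 and 1.297 in *M*-cKO. *Lamc1* RPKM was 1.64, 1.92 and 1.85 in Ctrl, 1.98, 21.2 and 2.01 in *F*-cKO and 1.78, 1.87 and 1.87 in *M*-cKO. *Col4a1* RPKM was 1.43, 2.48 and 2.496 in Ctrl, 1.098, 18.7 and 2.12 in *F*-cKO and 0.943, 1.37 and 1.84 in *M*-cKO, and *Col4a2* RPKM was 2.47, 3.73 and 3.496 in Ctrl, 1.37, 19.2 and 3.22 in *F*-cKO and 1.23, 2.14 and 2.82 in *M*-cKO. For each of these, *F*-cKO library 2 was over 5 times every other library, the next highest being 3.73 RPKM for *Col4a2*.

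*Sparc* RPKM was 7.06, 8.46 and 8.33 in Ctrl, 5.92, 60.04 and 8.94 in *F*-cKO and 6.23, 8.13 and 8.05 in *M*-cKO. *Nid2* RPKM was 1.27, 1.81 and 1.62 in Ctrl, 0.816, 14.3 and 2.04 in *F*-cKO and 0.657, 1.21 and 1.53 in *M*-cKO. *Fbln1* RPKM was 3.27, 4.96 and 3.32 in Ctrl, 6.13, 20.4 and 4.73 in *F*-cKO and 7.41, 7.86 and 8.79 in *M*-cKO. In *F*-cKO library 2, *Sparc*, *Nid2* and *Fbln1* stood at 8.08, 10.04 and 3.76 times the mean of *F*-cKO libraries 1 and 3. The collagen I chains stood at 3.60 (*Col1a1*) and 2.46 (*Col1a2*) times, and *Col3a1* at 3.92 times. *Col1a1* RPKM was 4.28, 7.88 and 5.65 in Ctrl, 1.14, 14.4 and 6.85 in *F*-cKO and 0.499, 2.79 and 4.995 in *M*-cKO, *Col1a2* RPKM was 2.68, 5.79 and 4.49 in Ctrl, 1.64, 7.395 and 4.38 in *F*-cKO and 0.401, 3.21 and 4.27 in *M*-cKO and *Col3a1* RPKM was 3.47, 6.14 and 4.99 in Ctrl, 1.41, 12.2 and 4.83 in *F*-cKO and 0.303, 1.83 and 3.06 in *M*-cKO. In these collagens, *F*-cKO library 2 was the highest of the 9 libraries, and *F*-cKO library 1 and *M*-cKO library 1 were the lowest. *Dcn* RPKM was 1.05, 2.72 and 2.08 in Ctrl, 1.17, 4.39 and 2.09 in *F*-cKO and 0.322, 0.649 and 1.49 in *M*-cKO, *Lum* RPKM was 0.453, 0.714 and 1.09 in Ctrl, 0.644, 4.702 and 1.14 in *F*-cKO and 0.174, 0.639 and 0.844 in *M*-cKO and *Ogn* RPKM was 1.98, 3.82 and 2.49 in Ctrl, 1.94, 2.98 and 2.89 in *F*-cKO and 0.639, 0.802 and 3.51 in *M*-cKO. *Ogn* was the only one of the 3 in which *F*-cKO library 2 was not the highest.

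In the 3 regulators *F*-cKO library 2 was below the other *F*-cKO libraries, as it was in *Col4a4* (0.765 times the mean of *F*-cKO libraries 1 and 3), while *Ogn*, *Col16a1* and *Col19a1* stood at 1.23, 1.61 and 1.81 times that mean. *Aldh1a2* RPKM was 7.78, 13.98 and 13.9 in Ctrl, 8.96, 2.59 and 16.5 in *F*-cKO and 1.88, 10.1 and 11.5 in *M*-cKO. *Foxc1* RPKM was 1.496, 2.45 and 2.499 in Ctrl, 2.46, 1.05 and 3.198 in *F*-cKO and 1.205, 3.09 and 1.93 in *M*-cKO. *Foxd1* RPKM was 0.159, 0.306 and 0.292 in Ctrl, 0.249, 0.157 and 0.273 in *F*-cKO and 0.144, 0.537 and 0.387 in *M*-cKO. For these 3 genes library 2 stood at 0.203, 0.372 and 0.601 times the mean of *F*-cKO libraries 1 and 3. Markers of other cells in the same library were also far from the rest. Endothelial markers summed to 138 RPKM in *F*-cKO library 2 and to between 10.1 and 17.6 in the other 8 libraries, meningeal fibroblast markers to 120 and between 37.5 and 61.2, pericyte markers to 50.4 and between 22.8 and 37.8, and microglial markers to 33.3 and between 13.9 and 22.63. Dorsal cortex markers summed to 778 RPKM in this library and to between 1025 and 1217 in the others. Cartilage and bone markers were at 5.28 and between 0.816 and 1.88, skin markers at 4.22 and between 6.64 and 12.7, skeletal muscle markers at 7.17 and between 5.42 and 12.5, and choroid plexus markers at 1135 and between 214 and 1971. Their part in the members' values was not tested.

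**Figure D4:**
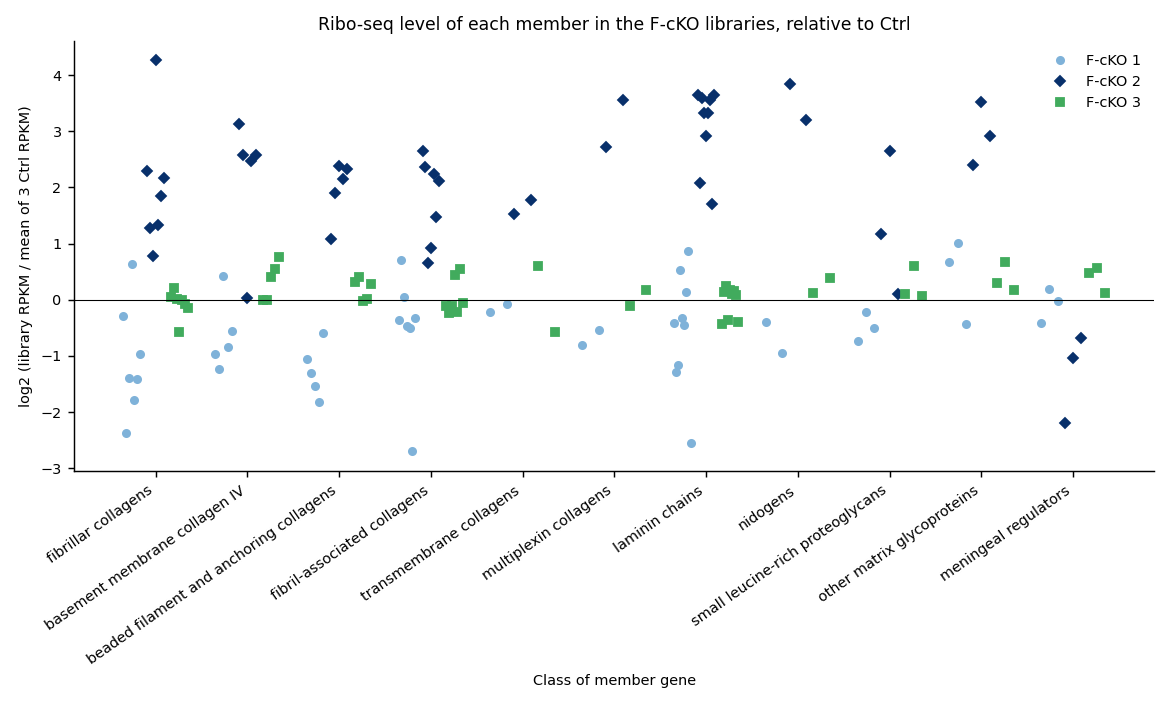
Ribo-seq level of 48 members in each *F*-cKO library as log2 of its RPKM over the mean of the 3 Ctrl libraries (vertical axis), by class of gene (horizontal axis). Light blue circles are library 1, dark blue diamonds library 2 and green squares library 3. Library 2 lies above both others in nearly all members outside the meningeal regulators, where it lies below them.

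With this library included, none of the 48 members was called in *F*-cKO by edgeR, at a background of 0% of genes called in either direction. Libraries did not overlap for 2 members that were higher (3.65% of all genes) and 0 that were lower (4.21%). The median log2 fold change was 1.25, with 45 members above 0, and the smallest adjusted *P* of a member was 0.730 (2 members had an unadjusted *P* below 0.05, and DESeq2 called none). Without *F*-cKO library 2 the median became -0.15, with 16 members above 0 and 32 below, again none called, and 1 member had an unadjusted *P* below 0.05. This was *Fn1*, whose RPKM was 2.56, 2.39 and 2.15 in Ctrl, 4.76, 27.2 and 3.77 in *F*-cKO and 2.14, 43.6 and 5.46 in *M*-cKO. All *F*-cKO libraries were above all Ctrl libraries for *Fn1*, and without library 2 its log2 fold change was 0.82 with a standard error of 0.15 (adjusted *P* = 0.875). Without that library, 1 gene of 14336 was called in this comparison.

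In *M*-cKO, 3 of 48 members rose and 1 fell in Ribo-seq, at a background of 7.13% of genes called higher and 7.5% called lower. The median log2 fold change of the members was -0.33, compared with 0.00 over all genes, and without *M*-cKO library 1 it was 0.047. Libraries did not overlap for 4 members that were higher (19.9% of all genes) and 6 that were lower (19%), and on the RPKM scale *Col9a3* overlapped, so that 3 were higher. *Col25a1* RPKM was 0.0649, 0.0767 and 0.0586 in Ctrl, 0.0633, 0.2299 and 0.0449 in *F*-cKO and 0.197, 0.407 and 0.147 in *M*-cKO. It rose (log2 fold change 1.91, standard error 0.44, adjusted *P* = 0.0315), from 19 to 25 fragments per Ctrl library to between 36 and 64 in *M*-cKO. *Lama5* RPKM was 0.162, 0.209 and 0.154 in Ctrl, 0.255, 1.76 and 0.137 in *F*-cKO and 0.474, 0.535 and 0.363 in *M*-cKO, and it rose too (log2 fold change 1.40, standard error 0.26, adjusted *P* = 0.0184). *Fbln1* rose to 2.102 times Ctrl (log2 fold change 1.07, standard error 0.18, adjusted *P* = 0.0156). All 3 of these were also higher in RNA-seq, at log2 fold changes of 1.19, 0.54 and 0.58.

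*Lama2* RPKM was 0.529, 0.651 and 0.628 in Ctrl, 0.247, 2.54 and 0.665 in *F*-cKO and 0.130, 0.207 and 0.185 in *M*-cKO. The *M*-cKO libraries were all below every Ctrl library, and *Lama2* fell (log2 fold change -1.78, standard error 0.24, adjusted *P* = 0.00862), as in RNA-seq (-0.98). Without Ctrl library 1 or without Ctrl library 3, 0 members were called higher, and without Ctrl library 2, 1 was, namely *Fbln1*. The adjusted *P* values of these lost calls lay between 0.0542 and 0.0596 for *Fbln1*, between 0.0613 and 0.0710 for *Lama5* and between 0.0546 and 0.105 for *Col25a1*, which lost its call also without *M*-cKO library 1. *Lama2* was not called without Ctrl library 2 (adjusted *P* = 0.0518). When all 3 groups, *F*-cKO library 2 included, shared one fit, none of the 4 calls held (adjusted *P* = 0.340 for *Fbln1*, 0.435 for *Lama5*, 0.206 for *Col25a1* and 0.278 for *Lama2*). Without *M*-cKO library 3, 3 members were called lower.

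The RPKM of *M*-cKO library 2 was over 3 times the mean of *M*-cKO libraries 1 and 3 for *Fn1* (11.5 times), *Col4a4* (10.8 times), *Col7a1* (4.88 times, with 2, 24 and 13 fragments in *M*-cKO) and *Col18a1* (3.002 times, with 90, 200 and 104 fragments). *Fn1* had 411, 6188 and 1205 fragments in the 3 *M*-cKO libraries and between 629 and 888 in Ctrl, and its log2 fold change of 2.92 was not called by edgeR (adjusted *P* = 0.0885), whereas DESeq2 called it (adjusted *P* = 0.0472). *Col4a4* had 18, 221 and 43 fragments in *M*-cKO and between 25 and 48 in Ctrl (2.54, not called). Without *M*-cKO library 2 these log2 fold changes were 0.69 and 0.42. In RNA-seq, FPKM in *M*-cKO lay between 4.95 and 9.39 for *Fn1* and between 0.126 and 0.220 for *Col4a4*. Whether RNA-seq and Ribo-seq libraries of the same number share samples is not known. *Col12a1*, which fell in RNA-seq, had RPKM of 0.5697, 0.894 and 0.487 in Ctrl, 0.509, 4.06 and 0.604 in *F*-cKO and 0.403, 0.416 and 0.463 in *M*-cKO, lower in all *M*-cKO libraries than in Ctrl but not called (log2 fold change -0.59, standard error 0.25, adjusted *P* = 0.138).

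When Ribo-seq of *M*-cKO was set against that of *F*-cKO, no member was called by edgeR, at a background of 0% in either direction, and the median log2 fold change was -1.63. Libraries did not overlap for 0 members that were higher (9.21% of all genes) and 3 that were lower (6.81%), or 4 with *Lamc1* on the RPKM scale. An unadjusted *P* below 0.05 was found for 5 members, all lower, and DESeq2 called 1 lower. Without *F*-cKO library 2 the median was -0.07, and 3 members had an unadjusted *P* below 0.05 in the higher direction (*Col25a1*, *Lama5* and *Fbln1*) and 1 in the lower (*Lama2*), with none called.

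Translation efficiency (TE) was taken as the ratio of mean RPKM to mean FPKM. In Ctrl, 38 members with a mean of at least 1 FPKM had a median TE of 0.315, compared with 0.757 over 12952 genes. The highest TE values of the members were those of *Aldh1a2* at 4.31, *Col1a1* at 1.63, *Col1a2* at 1.53, *Foxc1* at 1.43 and *Col3a1* at 1.29. Basement membrane genes were below 1, as with *Lamb1* at 0.434, *Nid1* at 0.249 and *Col4a1* at 0.138. *Sparc*, the member with the most RNA, had a TE of 0.168, and *Col9a3* one of 0.0670. Other members known from fibroblasts had a lower TE than *Col3a1*, with *Ogn* at 1.27 and *Dcn* at 0.921, above the median over all genes, and *Col6a1* at 0.541, *Lum* at 0.522, *Col6a2* at 0.435 and *Col5a1* at 0.379, below it. The 16 meningeal fibroblast markers that are not members had a median of 0.500, endothelial markers had a median of 0.204 and pericyte markers one of 0.307. The RNA-seq and Ribo-seq values come from separate libraries with their own scales, so a TE below that of other genes is a ratio of these levels and was not tested.

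In *M*-cKO the median TE of 39 members was 0.254 (0.743 over all genes). *Col1a1*, *Col1a2* and *Col3a1* stood at 0.520, 0.679 and 0.331. In *F*-cKO the median of 30 members was 0.747 (0.786 over all genes), and 0.258 without Ribo-seq library 2. In the test of differential TE none of 47 members was called in *F*-cKO by edgeR, at a background of 0%, although all 47 had a positive log2 value (median 1.65). An unadjusted *P* below 0.05 was reached by 7, and DESeq2 called none. Without Ribo-seq *F*-cKO library 2 the median was 0.37, with 29 above 0 and 18 below, and none was called.

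**Figure D5:**
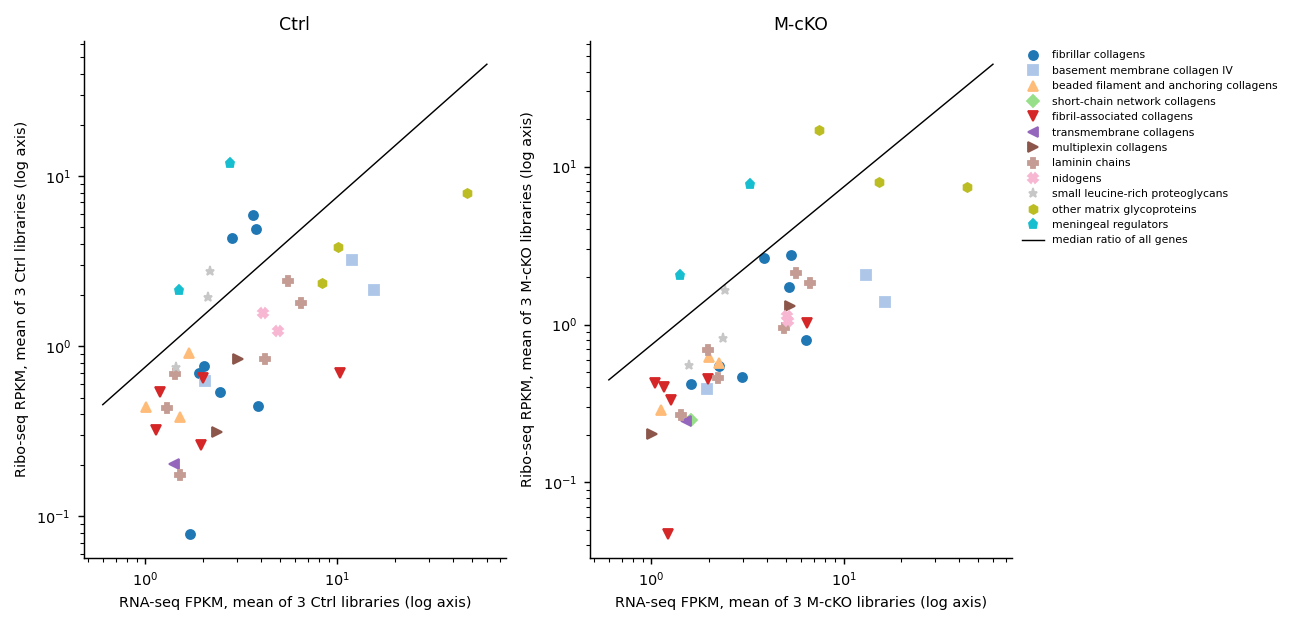
Ribo-seq RPKM (vertical axis, log scale) against RNA-seq FPKM (horizontal axis, log scale) for members with a mean of at least 1 FPKM in the group shown, as means of 3 libraries in Ctrl (left) and *M*-cKO (right). The line marks the median ratio over all genes, 0.757 in Ctrl and 0.743 in *M*-cKO. In Ctrl, 7 members lie above the line (*Aldh1a2*, *Foxc1*, *Col1a1*, *Col1a2*, *Col3a1*, *Ogn* and *Dcn*), in *M*-cKO 3 do (*Aldh1a2*, *Fn1* and *Foxc1*).

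In *M*-cKO, 1 of 47 members had a higher TE and none a lower one, at a background of 1.89% and 1.18% of genes. *Col9a3*, a chain of the fibril-associated collagen IX, had RNA-seq FPKM of 7.16, 11.9 and 12.1 in Ctrl, 7.76, 6.89 and 6.92 in *F*-cKO and 5.57, 7.41 and 6.39 in *M*-cKO and Ribo-seq RPKM of 0.524, 0.783 and 0.777 in Ctrl, 0.556, 3.01 and 0.670 in *F*-cKO and 1.12, 0.769 and 1.17 in *M*-cKO. Its RNA fell in *M*-cKO, while its RPKM was above all Ctrl libraries in *M*-cKO libraries 1 and 3 and within the Ctrl range in library 2 (log2 fold change 1.35, standard error 0.32, adjusted *P* = 0.0366 for TE). This call was lost when any 1 of 9 of the 12 libraries was left out (adjusted *P* between 0.0532 and 0.1002), with no filter on low counts (adjusted *P* = 0.0599) and with all 3 groups in one fit (adjusted *P* = 0.552). The libraries concerned were the 3 RNA-seq *M*-cKO libraries, RNA-seq Ctrl libraries 2 and 3, Ribo-seq *M*-cKO libraries 1 and 3, and Ribo-seq Ctrl libraries 1 and 2. The counts of higher members ranged from 0 to 3 over these omissions, reaching 3 without Ribo-seq *M*-cKO library 1 or 3. *Col3a1* (-1.86) and *Col1a1* (-1.55) had the lowest TE log2 values of the fibrillar collagens and were not called.

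*Col4a6* differed between the assays. It had between 0 and 5 reads per RNA-seq library, too few to test, but between 9 and 101 fragments per Ribo-seq library. Its RPKM was 0.156, 0.254 and 0.2202 in Ctrl, 0.142, 1.26 and 0.356 in *F*-cKO and 0.0685, 0.114 and 0.153 in *M*-cKO, highest in *F*-cKO library 2. The gene starts 1343 bases from *Col4a5* on the opposite strand of the X chromosome (RefSeq, GRCm38.p6). Whether fragments of related or neighbouring chains were counted for *Col4a6* was not tested.

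The 18 members with blank Ribo-seq counts were described by RPKM alone. In *F*-cKO 3 of them lay above all Ctrl libraries (*Col17a1*, *Col24a1* and *Col5a3*), compared with 2.5% of the 26126 genes with blank counts and an RPKM above 0 in some library, and in *M*-cKO 2 did (*Col27a1* and *Col6a5*), compared with 7.85%. Below all Ctrl libraries lay 1 in *F*-cKO, *Col20a1* (2.91% of such genes), and 0 in *M*-cKO (1.96%). *Col20a1*, whose RNA rose most in *M*-cKO, had RPKM of 0.0196, 0.0309 and 0.0155 in Ctrl, 0, 0 and 0.0141 in *F*-cKO and 0.0826, 0.04804 and 0.0103 in *M*-cKO, and its *M*-cKO libraries overlapped Ctrl.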

How the data were processed

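RNA-seq and Ribo-seq of E15.5 cortex were used, with samples grouped by their labels. Per the methods and the submitters' processing notes, RNA-seq reads were aligned with HISAT2 2.0.5 and Ribo-seq reads with TopHat2, on mm10, and HTSeq and DESeq2 1.14.1 were also named. The authors deposited raw read counts per gene, RNA-seq FPKM values and Ribo-seq RPKM values. Counts of 40490 genes were blank in 8 Ribo-seq libraries, so those genes were left out of the Ribo-seq and TE tests.

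Counts were tested with edgeR 4.0.16 in R 4.3.3 (quasi-likelihood test, TMM scaling, filterByExpr with a minimum count of 10 and a minimum total of 15), over all genes, with Benjamini-Hochberg adjustment and a threshold of 0.05. Each comparison used its own 2 groups, and a difference in TE was taken from an assay-by-group term. A called gene passed this threshold. FPKM and RPKM served as levels and were not tested, except for marker sums (exact permutation tests). Alternatives were DESeq2 1.42.0, RLE scaling, no filter, all 3 groups in one fit, a replicate block and leaving out each library. One further alternative, leaving out both *F*-cKO 2 and *M*-cKO 2 from Ribo-seq, was chosen after seeing the data. Counting error is small at these depths for abundant members only. The fits were also run on simulated counts with a common dispersion and changes planted in well-covered genes. That simulation held no outlying library, so it does not speak to such libraries or to changes in genes with few counts.

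The members and lists were chosen with earlier results of these data known. Values in every library are given for 16 set members and for the 5 called members with the largest log2 fold change per direction and comparison. Other members are named where called or among the 3 highest of their class, and at most 4 genes are named per other list, by adjusted *P*. Promoter windows are from RefSeq (GRCm38.p6). Members of multigene families may share reads, and the counting was not checked for this.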

Additional observations from a re-analysis of the deposited data

Results flagged for a closer look

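Of the 18 members with blank Ribo-seq counts, 5 had RPKM values in a knockout that were above all Ctrl libraries. In *F*-cKO these were *Col17a1* (mean RPKM 0.0595), *Col24a1* (0.0316) and *Col5a3* (0.0350), where 2.5% of the genes with blank counts and an RPKM above 0 lay above Ctrl. In *M*-cKO they were *Col27a1* (0.145) and *Col6a5* (0.119), where 7.85% of such genes did. These values are outside the count tests, are low, and were not tested.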

How the results depend on the processing

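No called log2 fold change of a member changed sign under any alternative, but 246 of 5199 member values did, none of them called, of which 221 changed sign when 1 library was left out. Without Ribo-seq *F*-cKO library 2, 33 of 48 members changed sign in Ribo-seq of *F*-cKO. Leaving out 1 library gave median log2 fold changes of the members from -0.34 to -0.12 for *F*-cKO and from -0.10 to 0.38 for *M*-cKO in RNA-seq, from -0.15 to 1.70 for *F*-cKO, from -0.45 to 0.047 for *M*-cKO and from -2.05 to -0.067 for *M*-cKO with *F*-cKO in Ribo-seq, and from -0.48 to 0.014 for *M*-cKO in TE. For *M*-cKO with *F*-cKO in Ribo-seq the median was -0.94 with a replicate block and -0.18 without *F*-cKO 2 and *M*-cKO 2. Members called in RNA-seq of *F*-cKO numbered 1 higher and 13 lower, and became 2 higher with DESeq2, 4 higher and 21 lower with no filter, 2 higher with all 3 groups in one fit, and 0 higher and 6 lower with a replicate block, which did not call *Col1a1*, *Col1a2*, *Col6a1*, *Col6a3*, *Col7a1*, *Col23a1*, *Foxc1* and *Lamc1*. DESeq2 also gave 13 lower, without *Col1a1*, *Col1a2* and *Col7a1* and with *Col9a3*, *Col11a2* and *Foxd1*. Leaving out 1 library gave 0 to 3 higher and 7 to 16 lower. For *M*-cKO, no filter gave 15 higher, and leaving out 1 library gave 6 to 17 higher and 5 to 8 lower. Here a replicate block did not call *Lama1* and *Col4a4*. For *M*-cKO with *F*-cKO, no filter gave 29 higher, and leaving out 1 library 4 to 26 higher and 1 to 2 lower. A replicate block did not call *Col1a1*, *Col1a2*, *Col3a1* and *Foxd1* in that comparison. In Ribo-seq of *M*-cKO, all 3 groups in one fit gave 0 higher and 0 lower, DESeq2 gave 2 lower, and leaving out 1 library gave 0 to 4 higher and 0 to 3 lower. DESeq2 gave 1 lower for *M*-cKO with *F*-cKO in Ribo-seq. For TE in *M*-cKO, DESeq2 gave 2 higher and 1 lower, no filter and all 3 groups in one fit gave 0 higher, the replicate block gave 1 lower, and leaving out 1 library gave 0 to 3 higher and 0 to 1 lower. The median TE of the members without a minimum FPKM was 0.375 in Ctrl and 0.346 in *M*-cKO, and leaving out 1 Ribo-seq library gave 0.284 to 0.345 for Ctrl. The same omission gave 0.258 to 1.04 for *F*-cKO, and 0.217 to 0.279 was found for *M*-cKO. Apart from the fewer libraries or more genes that an alternative itself brings, the cause was not tested. Deviations of same-numbered libraries from their group means had low correlations of both signs (from -0.14 to 0.16 in RNA-seq and from -0.28 to 0.16 in Ribo-seq). With 3 libraries per group, such values cannot decide whether the replicate numbers pair the samples.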
